A study of Mus musculus with 6 samples.

Results

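The trophoblast and extraembryonic lineage genes described here are Hand1, Gata2, Gata3, Tfap2a, Tfap2c, Elf5, Ets2, Plac1, Rhox6 and Rhox9, which were selected on their roles in the placenta with the difference between genotypes in these same samples already known. They are 10 of the 52636 genes in the count table, and their differences between genotypes are therefore given as a description. Calls of members come from the fit across all genes and are no test of the group. RNA was sequenced from embryoid bodies (EBs), aggregates in which embryonic stem cells (ESCs) begin to differentiate, in 3 samples of the wild type (WT) mouse ESC line E14 and 3 samples of a Tnfaip2-/- line derived from it with CRISPR/Cas9. In both groups the EBs formed for 3 days in hanging drops and then differentiated for 3 days on gelatin. Only this later step was without leukemia inhibitory factor. The Tnfaip2-/- line is 1 clone with a premature stop codon, so that the genotype and other properties of this clone cannot be told apart. The study describes the 3 samples of each line as biological replicates. Within a line, 2 samples differed by at most 1.61 times the sampling noise (median over 13892 genes), against at least 21.3 times between lines. Samples of a line thus differed by little more than counting error, and whether they were independent cultures was not tested. Standard errors and p-values describe the spread of these samples, not that between independent clones. The totals were 22987433, 22489903 and 23804489 counts in WT EBs, compared with 22480962, 21765931 and 21986960 in Tnfaip2-/- EBs. Levels are given as counts per 1000000 normalized counts (CPM), as mean ± SD over 3 samples. At these depths 3 counts, taken as the floor of detection over a group's summed counts, correspond to between 0.126 and 0.138 CPM in a single sample. Intervals and floors cover counting error only.

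The placenta arises from the trophectoderm, the outer layer of the blastocyst, and ESCs, which derive from the inner cells, seldom enter this lineage. A network of transcription factors of the TFAP2, GATA, ETS and HAND families establishes trophoblast stem cells and later the giant cells, spongiotrophoblast and syncytiotrophoblast. Most of these factors also act elsewhere, TFAP2C in primordial germ cells, TFAP2A in surface ectoderm and neural crest, and HAND1 in extraembryonic mesoderm and heart.

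Tnfaip2, the targeted gene, had 7, 4 and 7 counts in the WT group and then 0, 2 and 2 in the Tnfaip2-/- group. Its transcript was near the floor in both lines, and a stop codon need not remove it, so that these counts are a weak check of the labels. The EBs of both genotypes held pluripotent cells' transcripts in quantity. The level of Pou5f1 per kb of exon was 338 ± 4.29 CPM in the WT EBs and 186 ± 2.66 CPM in the Tnfaip2-/- EBs. Many defining genes of differentiated trophoblast were not detected: of the 32 genes listed for these cells 19 had no count in any of the 6 samples, among them Tpbpa, Tpbpb, the placental lactogens Prl3d1, Prl3d2 and Prl3b1, and the syncytin gene Synb. The other 13 had counts, among them Gcm1, Ascl2 and Dlx3, whose values are given below. In Prl3d1, Prl3d2 and Synb 54.6%, 67.6% and 76.1% of the 51-base windows, the length of the reads, are shared with other genes, so that reads of these genes can be missed. Elf5, which marks committed trophoblast stem cells, had at most 3 counts in any sample. The name of the group thus refers to what the genes do in the placenta, not to a cell type shown to be present.

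All 10 members had counts, and 7 passed edgeR's filter on low counts and were tested with all 17849 genes that passed it. Gata3, Elf5 and Plac1 did not pass. Of the 7 tested members 6 were called higher in the Tnfaip2-/- EBs and 1, Tfap2a, lower at an adjusted p below 0.05, where 67.7% of all tested genes were called, 34.0% higher and 33.7% lower. At a change of at least 2-fold 5 members were called higher and 1 lower, against 7.46% and 4.51% of all tested genes. In 7 of the 10 members the samples of the genotypes did not overlap, against 69.4% of the tested genes. Because the contrast was known when the members were chosen, nothing is read from these counts. The median log2 fold change of the 7 tested members, Tnfaip2-/- over WT, was 1.75, and that of all tested genes was 0.003. The filter keeps a gene with enough counts in either group, and Hand1, whose value is this median, and Gata2 passed it through their Tnfaip2-/- counts, so that their direction and the median are in part set by it. The same holds for low-count genes of the lists below.

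**Figure D1:**
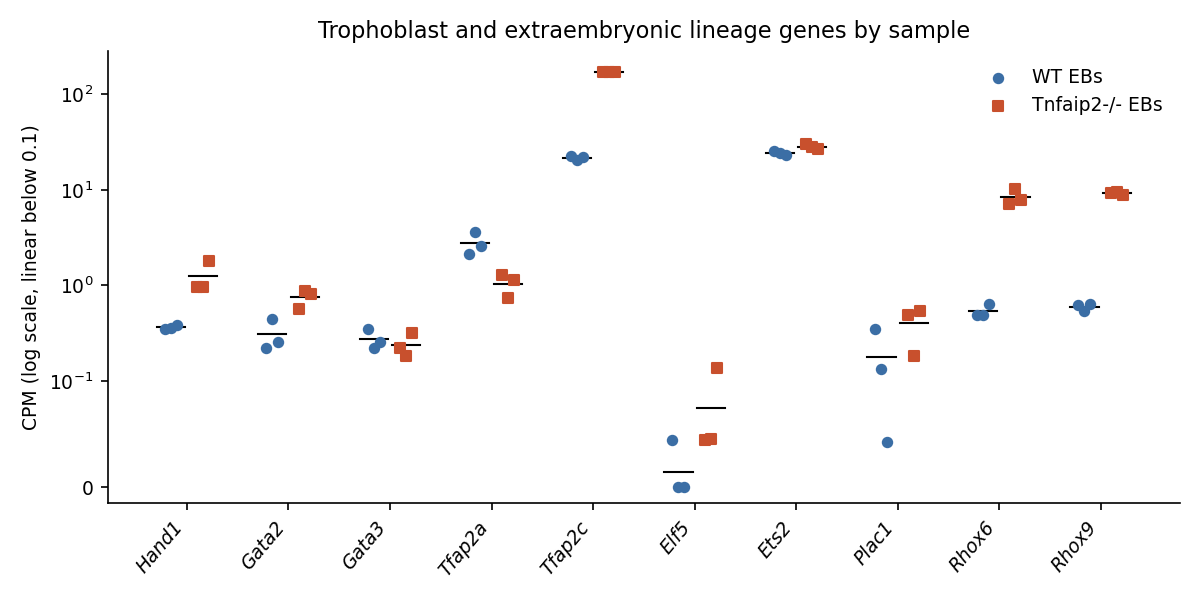
Level of each of the 10 members in CPM in each of the 3 WT samples (circles) and 3 Tnfaip2-/- samples (squares), with the group mean as a line; the axis is logarithmic above 0.1 CPM and linear below. Tfap2c, Rhox6 and Rhox9 stand farthest apart between the groups, Tfap2a lies lower in the Tnfaip2-/- EBs, and Gata3, Elf5 and Plac1 overlap.

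Per kb of exon, which allows levels of different genes to be compared, Tfap2c was the most abundant member in both genotypes, with 5.89 ± 0.290 CPM in the WT EBs and 46.5 ± 0.450 CPM in the Tnfaip2-/- EBs. In the WT EBs Ets2 followed at 4.20 ± 0.177 CPM per kb. Tfap2a at 0.563 ± 0.151 and Rhox6 at 0.533 ± 0.0859 CPM per kb did not differ beyond their spread. Below them lay Rhox9 at 0.240 ± 0.0218 CPM per kb, and then Hand1, Plac1, Gata3 and Gata2, between 0.183 and 0.0570 CPM per kb. Of these 4 genes Plac1 did not differ beyond its spread from the genes beside it in the order, nor did Gata3 from Gata2. In the Tnfaip2-/- EBs the order was different. Rhox6 was next to Tfap2c at 8.36 ± 1.61 CPM per kb, followed by Ets2 at 4.89 ± 0.261, Rhox9 at 3.68 ± 0.135 and Hand1 at 0.623 ± 0.243 CPM per kb. Plac1 at 0.289 ± 0.138 and Tfap2a at 0.213 ± 0.0575 CPM per kb overlapped in their spread, and Gata2, Gata3 and Elf5 came last, with 0.139, 0.0602 and 0.0128 CPM per kb. Thus Ets2, close behind Tfap2c in the WT EBs, was passed by Rhox6, and Tfap2a, level with Rhox6 in the WT EBs, lay below Hand1.

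Tfap2c (ENSMUSG00000028640, chromosome 2, 172549593 to 172558622, GRCm38) encodes AP-2γ, a transcription factor required in trophectoderm and in germ cell precursors. It had 512, 459 and 515 counts in the WT samples, against 3921, 3708 and 3801 in the Tnfaip2-/- samples. The groups lay far apart and the 3 samples of each were alike. The difference was 7.89-fold (log2 fold change 2.98 ± 0.0394, standard error), and 95 of the 17849 tested genes had a larger log2 fold change. Tfap2a (ENSMUSG00000021359, chromosome 13, 40715302 to 40738376), which encodes AP-2α, went the other way, with 48, 80 and 61 counts in WT EBs, compared with 29, 16 and 25 in Tnfaip2-/- EBs. Each Tnfaip2-/- sample was below each WT sample, and the log2 fold change was -1.39 ± 0.212, a level 2.62-fold lower. Exons of other genes on the opposite strand overlap 14.6% of the exon bases of Tfap2a, and the library kit does not keep the strand. The genes concerned had at most 14 counts each over all 6 samples, and the effect of the overlap on the Tfap2a counts was not tested. Of the remaining TFAP2 genes, Tfap2b, a neural crest and surface ectoderm factor, had 7, 8 and 5 counts in the WT group and then 0, 1 and 0 in the Tnfaip2-/- group. The ratio of its counts, corrected for library totals, was 19.1 in favour of the WT EBs (95% exact binomial interval 3.06 to 792). Tfap2e had 3, 0 and 1 counts against 4, 5 and 3, and Tfap2d had none. The family's summed level was 25.2, 24.4 and 24.8 CPM in the WT samples and 174, 170 and 173 CPM in the Tnfaip2-/- samples, most of it Tfap2c in both. Tfap2b and Tfap2e were not tested.

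Gata2 (ENSMUSG00000015053, chromosome 6, 88193891 to 88207032) and Gata3 (ENSMUSG00000015619, chromosome 2, 9857078 to 9890034) encode zinc finger factors that act together in trophoblast, where GATA2 controls giant cell genes and GATA3 promotes the trophectoderm state. Gata2 had 5, 10 and 6 counts in the WT samples, against 13, 19 and 18 in the Tnfaip2-/- samples. Every Tnfaip2-/- sample was above every WT sample, by a small number of reads. The log2 fold change was 1.27 ± 0.357, and the ratio of the summed counts was 2.49 (95% exact binomial interval 1.47 to 4.37). Gata3 had 8, 5 and 6 counts against 5, 4 and 7. These groups overlapped, and the ratio of WT to Tnfaip2-/- counts was 1.14 (interval 0.553 to 2.36), which includes a level 2-fold lower in the Tnfaip2-/- EBs and not one 2-fold higher, by counting error alone. The remaining genes of the family include the endoderm factors Gata4 and Gata6 and the blood factor Gata1. Gata4 was the most abundant GATA gene in both genotypes in CPM, with 182, 213 and 205 counts in WT EBs, compared with 176, 190 and 203 in Tnfaip2-/- EBs, and its log2 fold change of -0.04 was not past the threshold (adjusted p = 0.715, edgeR). Gata6, with 99, 98 and 115 counts against 107, 108 and 120, was not past it either (log2 fold change 0.14, adjusted p = 0.288). Gata1 had between 1 and 10 counts in each sample, with overlapping groups, and Gata5 at most 2. The GATA genes of trophoblast, Gata2 and Gata3, thus had at most 19 counts in a sample, far below the GATA genes of endoderm.

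Promoter windows, 250 bases before to 50 after a gene's start, came from RefSeq (GRCm38.p6). In the set used here 6 of the 10 members matched, namely Gata2, Gata3, Tfap2a, Elf5, Ets2 and Plac1, with 10 windows in all. They were searched on both strands for AGATAA, which GATA factors bind, GCCNNNGGC for TFAP2 factors, GGAATG for TEAD factors, CCGGAAG for ETS factors, CATCTG as an E-box bound by partners of HAND factors, and ATGCAAAT, the octamer. Among all 32851 windows these occur in 11.2%, 16.6%, 14.7%, 8.86%, 17.2% and 1.74%. In the members' 10 windows TFAP2 letters were found in 2, TEAD letters in 2 and GATA letters in 1, and the other motifs in 0. Both windows with the TFAP2 letters belong to the GATA pair, and they are shown because this pair shares a motif of another family among the members. Capitals mark matches, 1 to TFAP2 and then 1 to TEAD in the window of Gata2, which has a further window without matches, and 3 to TFAP2 in that of Gata3; no matches overlap.
Gata2 (chr6:88198414-88198713, forward strand): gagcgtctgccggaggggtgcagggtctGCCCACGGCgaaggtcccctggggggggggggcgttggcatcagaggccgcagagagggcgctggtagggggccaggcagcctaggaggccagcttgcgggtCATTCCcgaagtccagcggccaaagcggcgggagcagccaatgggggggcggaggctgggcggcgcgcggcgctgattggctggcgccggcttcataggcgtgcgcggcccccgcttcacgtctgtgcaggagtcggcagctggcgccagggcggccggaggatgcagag
Gata3 (chr2:9878551-9878850, reverse strand): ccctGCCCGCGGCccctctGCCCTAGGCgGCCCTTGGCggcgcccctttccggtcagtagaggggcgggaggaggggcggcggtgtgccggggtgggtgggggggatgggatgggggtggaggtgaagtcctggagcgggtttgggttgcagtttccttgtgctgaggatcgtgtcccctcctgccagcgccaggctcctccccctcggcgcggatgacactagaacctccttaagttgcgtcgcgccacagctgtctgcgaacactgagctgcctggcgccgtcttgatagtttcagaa
The letters describe the windows only, and binding was not measured. The 2 windows of Gata2 hold 32 and 29 CpG dinucleotides and that of Gata3 holds 22, against a median of 7 over all windows and an upper quartile of 20.

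Hand1 (ENSMUSG00000037335, chromosome 11, 57828705 to 57832818) encodes a basic helix-loop-helix factor that drives the formation of trophoblast giant cells. It had 8, 8 and 9 counts in the WT group and then 22, 21 and 40 in the Tnfaip2-/- group. Replicate 3 of the Tnfaip2-/- EBs was the highest, and the groups did not overlap. The log2 fold change was 1.75 ± 0.317, a 3.37-fold difference, and 1.38 without that sample. Hand2, its relative in heart and limb, had 9, 1 and 7 counts in the WT samples, against 1, 0 and 0 in the Tnfaip2-/- samples, a ratio of 16.3 in favour of the WT EBs (95% exact binomial interval 2.55 to 679). Hand2 was not tested, and WT replicate 2 and Tnfaip2-/- replicate 1 had the same 1 count.

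Ets2 (ENSMUSG00000022895, chromosome 16, 95702075 to 95721051) and Elf5 (ENSMUSG00000027186, chromosome 2, 103411688 to 103450989) encode ETS factors, of which ETS2 supports self-renewal of trophoblast stem cells and ELF5 stabilizes their identity together with CDX2 and EOMES. Ets2 had 572, 546 and 545 counts in WT EBs, compared with 678, 617 and 595 in Tnfaip2-/- EBs. The groups did not overlap, but the log2 fold change of 0.22 ± 0.0549 was the smallest in size among the tested members, and 5444 tested genes had a more positive one. Elf5 had 1, 0 and 0 counts against 1, 1 and 3, too few for a comparison. Of the 26 genes listed for the ETS family, 19 were tested, of which 7 were higher, 7 lower and 5 not past the threshold, with a median log2 fold change of 0.08. Elf3, an epithelial factor, rose most among the tested ETS genes, from 423, 419 and 470 to 1371, 1284 and 1261 counts (log2 fold change 1.61, adjusted p = 5.6e-31, edgeR). Spdef and Spi1, which were not tested, had 1, 2 and 5 against 12, 12 and 9 counts and 4, 4 and 5 against 9, 22 and 14. Elf4 rose by 1.54 on the log2 scale (adjusted p = 1.99e-19) and Elf1 by 0.51 (adjusted p = 1.13e-08). Spic had a log2 fold change of 0.52 (adjusted p = 0.0335), which was no longer past the threshold without WT replicate 1 or Tnfaip2-/- replicates 1 or 3 (adjusted p = 0.236, 0.15 and 0.0854), with DESeq2 or without the filter (adjusted p = 0.214 and 0.0576). Etv1 and Etv4, which respond to FGF signals, had log2 fold changes of -2.04 and -1.71 (adjusted p = 1.92e-30 and 2.96e-27). Etv2, a factor of blood and vessel precursors, and Etv6 had log2 fold changes of -1.24 and -0.49 (adjusted p = 1.53e-05 and 4.53e-11). The family's summed level was 907, 905 and 902 CPM in the WT samples and 860, 860 and 866 CPM in the Tnfaip2-/- samples.

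Plac1 (ENSMUSG00000061082, chromosome X, 53069995 to 53240111) encodes a membrane-associated protein needed for normal growth of the placenta. It had 8, 3 and 1 counts in the WT group and then 11, 4 and 12 in the Tnfaip2-/- group. The groups overlapped, and the ratio of the summed counts was 2.35 (95% exact binomial interval 1.15 to 5.1), an interval that does not include the spread between samples. Without WT replicate 1 or Tnfaip2-/- replicate 2 the gene passed the filter and was called higher, with log2 fold changes of 2.13 and 1.52, and with no filter its log2 fold change of 1.16 was not past the threshold, so that its value depends on single samples and on the filter.

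**Figure D2:**
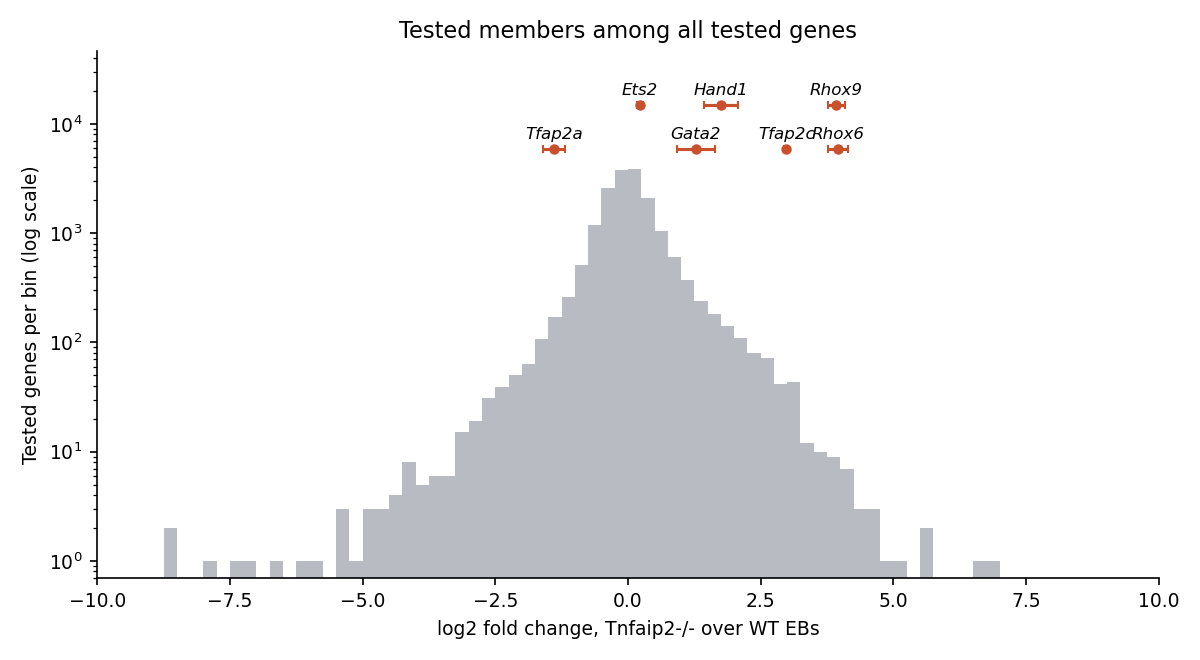
Number of tested genes in each bin of the log2 fold change, Tnfaip2-/- over WT EBs, on a logarithmic axis, with the 7 tested members above it at their log2 fold change and standard error; their height has no meaning. Rhox6, Rhox9 and Tfap2c lie in the upper tail, between 2.98 and 3.95, and Ets2 lies near the centre.

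Rhox6 (ENSMUSG00000006200, chromosome X, 37826910 to 37829857) and Rhox9 (ENSMUSG00000068048, chromosome X, 37899097 to 37901770) are homeobox genes of the reproductive homeobox cluster, a block of X-linked genes used in placenta, testis and ovary. Rhox6 had 11, 11 and 15 counts in the WT samples, against 163, 225 and 175 in the Tnfaip2-/- samples. Rhox9 had 14, 12 and 15 counts against 210, 207 and 195. Both had few reads in every WT sample and more than 10 times as many in every Tnfaip2-/- sample. Their differences were 15.5-fold and 15.2-fold (log2 fold changes 3.95 ± 0.188 and 3.92 ± 0.159), and 21 and 23 tested genes had larger log2 fold changes. The genes resemble each other: 157 of their 51-base windows are identical, 16.4% of those of Rhox6 and 6.2% of those of Rhox9. Reads from these windows fit both genes, and as only uniquely mapped reads were to be counted, the levels may be low estimates in both genotypes.

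The cluster around them, from 37213804 to 38306028 on chromosome X, holds 42 Rhox genes and pseudogenes in the table, of which 28 had counts, and further genes between them, most of which are given below. Among them are 16 copies of Rhox2 and Rhox4, which are given as sums below. In the other 12 every Tnfaip2-/- sample was above every WT sample in CPM, in Rhox11-ps2 with at most 1 count in a sample, where 69.4% of all tested genes did not overlap in either direction. Of the 42 genes 9 were tested and called higher, with a median log2 fold change of 3.18. Of these Rhox1, whose value is this median, Rhox10, Rhox7a, Rhox7b and Rhox7-ps2 passed the filter through their Tnfaip2-/- counts, so that direction and median are in part set by the filter. Rhox5, a marker of extraembryonic endoderm and trophoblast, was the most abundant in both genotypes. It rose from 216, 217 and 244 to 773, 741 and 711 counts (log2 fold change 1.75, adjusted p = 4.71e-28, edgeR), the smallest log2 fold change of the 9. Rhox10 rose most of the 9, from 0, 1 and 3 to 31, 27 and 21 counts (log2 fold change 4.22, adjusted p = 8.41e-11). Rhox1 went from 8, 12 and 12 to 102, 115 and 69 counts (log2 fold change 3.18, adjusted p = 1.29e-16). Rhox13 went from 17, 19 and 21 to 103, 113 and 111 counts (log2 fold change 2.55, adjusted p = 1.34e-17). Rhox5 and Rhox13, which passed the filter in both groups, lie apart in the cluster and share no windows with other genes. For Rhox7a, Rhox7b and the pseudogene Rhox7-ps2, with log2 fold changes of 3.09, 3.24 and 2.18 (adjusted p = 4.14e-08, 1.16e-06 and 7.38e-06), 43.0% to 70.3% of the 51-base windows are shared with another gene, mostly among themselves, and their separate values are uncertain. The pseudogenes Rhox7-ps1 and Rhox2-ps had between 0 and 13 counts in a sample, and Rhox11-ps2 at most 1.

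**Figure D3:**
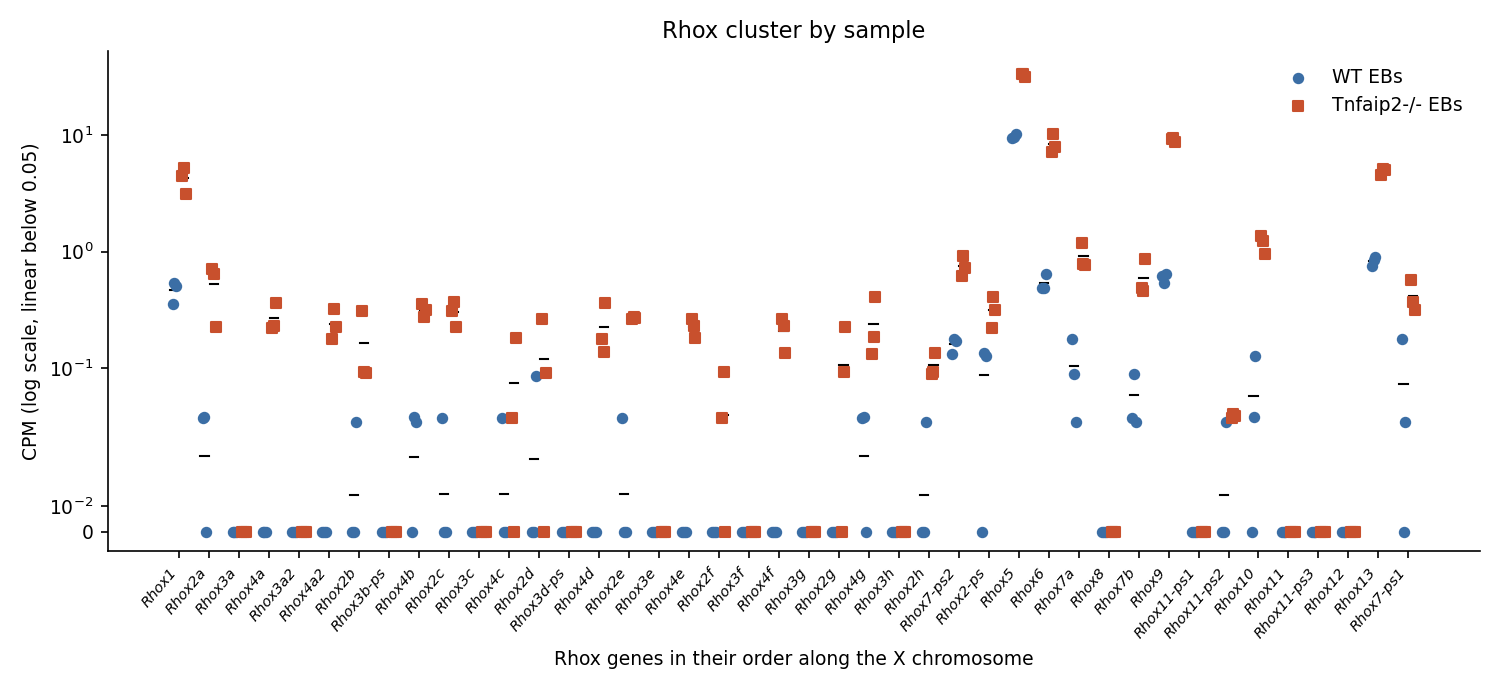
Level of the 42 genes and pseudogenes of the Rhox cluster in CPM in each of the 3 WT samples (circles) and 3 Tnfaip2-/- samples (squares), in their order along the X chromosome, with group means as lines; the axis is logarithmic above 0.05 CPM and linear below. Rhox5 is the highest in both groups, 14 genes are at 0 throughout, and the values of single Rhox2 and Rhox4 copies are uncertain.

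The Rhox2, Rhox3 and Rhox4 subfamilies consist of near-identical copies, in which 43.6% to 100% of the 51-base windows occur in other genes. Single copies are therefore not separable, and only sums over each subfamily are given. As only uniquely mapped reads were to be counted, reads that fit several copies can be missed, and the sums may be low estimates in both genotypes. The 8 Rhox2 copies (Rhox2a to Rhox2h) together had 3, 1 and 4 counts in WT EBs, compared with 45, 36 and 28 in Tnfaip2-/- EBs. The 8 Rhox4 copies (Rhox4a, Rhox4a2 and Rhox4b to Rhox4g) had 2, 2 and 1 counts against 37, 35 and 48. The 7 Rhox3 copies had none, within the same limit, and neither had Rhox8, Rhox11 and Rhox12, which are distinct in sequence. Part of the cluster was therefore at 0 in both genotypes. The promoter windows of 1 copy of each subfamily are shown with CpG dinucleotides in capitals, because these subfamilies alternate along the same stretch and differed in whether reads appeared.
Rhox2a (chrX:37244742-37245041, forward strand): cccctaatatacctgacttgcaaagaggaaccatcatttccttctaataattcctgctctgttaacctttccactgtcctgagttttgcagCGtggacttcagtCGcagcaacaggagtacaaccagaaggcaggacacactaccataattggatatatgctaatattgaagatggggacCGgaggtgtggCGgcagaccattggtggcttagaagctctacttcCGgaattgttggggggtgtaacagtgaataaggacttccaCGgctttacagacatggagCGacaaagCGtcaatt
Rhox4a (chrX:37265125-37265424, forward strand): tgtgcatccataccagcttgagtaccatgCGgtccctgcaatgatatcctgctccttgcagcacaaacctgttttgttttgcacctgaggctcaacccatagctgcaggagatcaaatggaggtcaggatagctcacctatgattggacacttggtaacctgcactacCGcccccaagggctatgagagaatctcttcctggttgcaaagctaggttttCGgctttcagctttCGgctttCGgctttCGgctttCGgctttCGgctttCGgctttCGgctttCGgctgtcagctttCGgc
Rhox3a (chrX:37249669-37249968, forward strand): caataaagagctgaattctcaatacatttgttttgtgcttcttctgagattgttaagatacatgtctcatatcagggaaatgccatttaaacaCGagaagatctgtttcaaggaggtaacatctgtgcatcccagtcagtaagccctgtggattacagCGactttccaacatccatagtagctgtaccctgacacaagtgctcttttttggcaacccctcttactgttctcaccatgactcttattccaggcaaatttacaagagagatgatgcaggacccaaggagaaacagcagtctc
These windows hold 8, 12 and 2 CpG dinucleotides. That of Rhox4a repeats 1 short CpG-containing unit near the start of the gene. The windows of the 28 Rhox genes matched in this set hold between 0 and 12 CpG, with a median of 7, the same as over all windows. The window of Rhox1 holds 0. ETS letters were found in 8 of the 28 windows, those of Rhox5 and of 7 Rhox2 copies, where 8.86% of all windows hold them. The 7 belong to copies of 1 subfamily and are not taken as separate finds. GATA letters were found in 1 window, E-box letters in 2, and TFAP2, TEAD and octamer letters in 0. In the Rhox5 window, which belongs to a RefSeq start upstream of the GENCODE gene, capitals mark the match to the ETS letters on the opposite strand.
Rhox5 (chrX:37754358-37754657, forward strand): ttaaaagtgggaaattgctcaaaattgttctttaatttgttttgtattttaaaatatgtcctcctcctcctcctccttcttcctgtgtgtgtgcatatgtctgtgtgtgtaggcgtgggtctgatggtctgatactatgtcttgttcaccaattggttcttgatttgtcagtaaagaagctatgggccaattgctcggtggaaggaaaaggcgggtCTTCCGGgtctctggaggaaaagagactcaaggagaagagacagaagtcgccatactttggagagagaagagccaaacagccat

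Genes beside the cluster gave a comparison that was chosen after values had been seen. Within 1000000 bases before the cluster 19 other genes were tested, of which 13 were higher, 3 lower and 3 not past the threshold, with a median log2 fold change of 0.26. Within the same distance after it 4 of 7 were higher, 1 lower and 2 not past it, with a median of 0.24. Over the 797 other tested genes of chromosome X the median was 0.04, with 298 higher and 233 lower. A few genes of these flanks had differences as large as those of Rhox genes. Gm9, directly before Rhox1, had 1, 0 and 2 counts in the WT group and then 53, 53 and 56 in the Tnfaip2-/- group, a ratio of 56.5 (95% exact binomial interval 19.0 to 277). Farther out on the same side, Lonrf3 went from 22, 25 and 17 to 84, 77 and 72 counts (log2 fold change 1.90, adjusted p = 2.08e-12, edgeR), and Gm14569 from 2, 1 and 0 to 7, 14 and 8 counts. Between the Rhox genes, Zbtb33 was not past the threshold, with 429, 417 and 441 counts against 373, 387 and 413 (log2 fold change -0.10, adjusted p = 0.175, edgeR), nor was the pseudogene Zfp36l1-ps (-0.71, adjusted p = 0.0683). Dppa3-ps, a pseudogene of the germ cell gene Dppa3 inside the cluster, rose by 2.74 on the log2 scale (adjusted p = 3.81e-13), but 32.2% of its windows occur in other genes, mainly Dppa3. Tmem255a also rose, from 4, 6 and 3 to 16, 18 and 20 counts, beside an overlapping exon of Zbtb33 on the opposite strand. Abundant neighbours differed in either direction or not past the threshold: Cul4b and Ube2a rose by 0.81 and 0.77 on the log2 scale (adjusted p = 8.55e-29 and 1.69e-20), Pgrmc1 and Slc25a5 had log2 fold changes of -0.36 and -0.20 (adjusted p = 3.58e-14 and 1.27e-09), and Upf3b and Lamp2 both of -0.03 (adjusted p = 0.51 and 0.496).

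The 19 genes listed for trophectoderm and trophoblast stem cells show how the members' values sit among other genes of the lineage. In these bulk samples more cells of a type and more RNA per cell cannot be told apart. Of the 18 tested, 9 were higher, 6 lower and 3 not past the threshold, with a median log2 fold change of 0.58. Their summed level was 219, 222 and 216 CPM in the WT samples and 384, 388 and 394 CPM in the Tnfaip2-/- samples. Its transcription factor genes included some of both directions. Esx1 and Sox21 rose by 2.28 and 1.07 on the log2 scale (adjusted p = 2.15e-10 and 6.65e-12, edgeR). Cdx2 had 42, 37 and 28 counts in the WT samples, against 1, 2 and 0 in the Tnfaip2-/- samples (adjusted p = 3.54e-13, edgeR). The ratio of the counts was 34.1 in favour of the WT EBs (95% exact binomial interval 11.4 to 168), although CDX2 also acts in the posterior embryo and its source cannot be told from bulk RNA. Klf5, Id2 and Tead4, of which TEAD4 is the factor at the top of the trophectoderm programme, had log2 fold changes of -1.32, -1.30 and -0.98 (adjusted p = 9.1e-22, 4.35e-26 and 1.1e-08). Eomes, also a mesendoderm gene, went from 648, 671 and 623 to 426, 368 and 440 counts (log2 fold change -0.62, adjusted p = 2.24e-12).

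Krt19, Nrk and Gjb5 were among the 9 genes of this list that were higher. Krt19, a keratin of simple epithelia, went from 61, 55 and 63 to 1225, 1131 and 1171 counts (log2 fold change 4.33, adjusted p = 1.37e-40, edgeR). Nrk, an X-linked kinase gene of the spongiotrophoblast, went from 39, 40 and 33 to 637, 559 and 567 counts (log2 fold change 4.01, adjusted p = 4.62e-34). The gap junction gene Gjb5 rose by 2.96 on the log2 scale (adjusted p = 5.27e-25). Krt7, also a keratin of simple epithelia, rose by 1.26 on the log2 scale (adjusted p = 3.95e-05). Of the keratins that pair in trophectoderm, Krt8 had a log2 fold change of -0.19 (adjusted p = 0.0166), which was not past the threshold without Tnfaip2-/- replicate 1 or with DESeq2 (adjusted p = 0.122 and 0.11), and Krt18 one of -0.15 (adjusted p = 0.055), which was past it without WT replicate 2, Tnfaip2-/- replicate 1 or the filter (adjusted p = 0.0318, 0.0153 and 0.0447). The window of Cdx2, the listed gene with the largest decrease, is shown because it holds the octamer letters, the rarest of the motifs searched. Capitals mark the octamer match and then a TFAP2 match.
Cdx2 (chr5:147307200-147307499, reverse strand): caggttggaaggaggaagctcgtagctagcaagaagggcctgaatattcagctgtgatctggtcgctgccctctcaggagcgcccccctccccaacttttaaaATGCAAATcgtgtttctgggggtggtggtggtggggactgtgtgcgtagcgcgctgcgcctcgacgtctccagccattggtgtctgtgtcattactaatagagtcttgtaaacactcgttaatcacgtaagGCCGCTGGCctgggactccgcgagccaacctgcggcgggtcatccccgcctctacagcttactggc

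**Figure D4:**
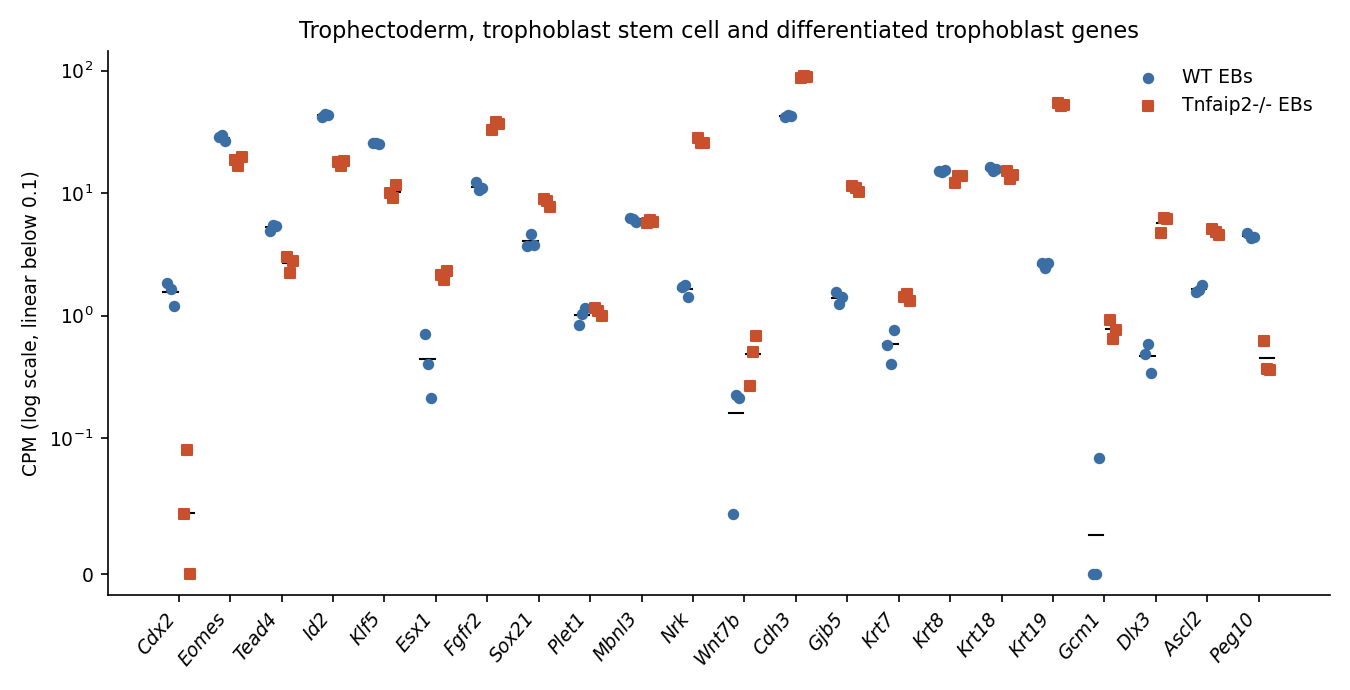
Level in CPM of 18 of the 19 genes listed for trophectoderm and trophoblast stem cells, and of 4 genes of differentiated trophoblast at the right, in each of the 3 WT samples (circles) and 3 Tnfaip2-/- samples (squares), with group means as lines; the axis is logarithmic above 0.1 CPM and linear below. Cdx2 falls to the floor in the Tnfaip2-/- EBs, while Krt19, Nrk, Gjb5, Gcm1 and Dlx3 rise.

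Of the 32 genes listed for differentiated trophoblast 10 were tested, of which 7 were higher, 2 lower and 1 not past the threshold, with a median log2 fold change of 0.87. Summed over the list, the level was 44.0, 41.5 and 41.3 CPM in the WT samples and 67.5, 69.9 and 69.9 CPM in the Tnfaip2-/- samples. Gcm1, the factor that starts syncytiotrophoblast formation, had 0, 0 and 2 counts in WT EBs, compared with 21, 14 and 17 in Tnfaip2-/- EBs (adjusted p = 1.06e-08, edgeR), a ratio of 27.2 (95% exact binomial interval 7.16 to 231). Of the fusion genes that act after it, Synb had no count, within the limit given above, and Syna had 3, 2 and 1 counts against 1, 4 and 7. Dlx3, a homeobox gene of the labyrinth and of surface ectoderm, went from 11, 13 and 8 to 108, 137 and 136 counts (log2 fold change 3.59, adjusted p = 1.5e-20). Flt1, which encodes a VEGF receptor of the spongiotrophoblast and of vessels, rose by 2.17, and Ascl2, needed for the spongiotrophoblast, by 1.54 on the log2 scale (adjusted p = 1.46e-23 and 9.45e-13). The imprinted gene Peg10, required for the spongiotrophoblast and labyrinth, fell from 107, 97 and 102 to 14, 8 and 8 counts (log2 fold change -3.30, adjusted p = 1.03e-18). Imprinted Phlda2 had a log2 fold change of -0.26 (adjusted p = 0.00452), not past the threshold without Tnfaip2-/- replicate 1 or with DESeq2 (adjusted p = 0.0898 and 0.0512). Genes of differentiated trophoblast were thus in part higher, in part lower and for the most part at 0.

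Several members also belong to other programmes, for which further genes were listed. All 9 germ cell genes were tested, with 8 higher, 1 lower and a median log2 fold change of 1.74. The list summed to 125, 128 and 122 CPM in the WT samples and 239, 241 and 243 CPM in the Tnfaip2-/- samples. Prdm1, which together with Prdm14 and Tfap2c specifies primordial germ cells, went from 86, 85 and 98 to 336, 321 and 336 counts (log2 fold change 1.92, adjusted p = 2.59e-23, edgeR). Nanos3, expressed in these cells once they form, went from 47, 28 and 24 to 105, 112 and 122 counts (log2 fold change 1.81, adjusted p = 2.77e-13). Itgb3 and Dppa3 rose by 3.13 and 2.67 on the log2 scale (adjusted p = 2.18e-18 and 8.26e-32), and Dnd1 fell by 0.65 (adjusted p = 2.84e-10). The part of germ cell transcripts in the levels of Tfap2c, Rhox6 and Rhox9 was not tested.

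Of the 24 genes of extraembryonic endoderm all were tested, with 8 higher, 12 lower and 4 not past the threshold, and a median log2 fold change of -0.13. Their summed level was 693, 709 and 696 CPM in the WT samples and 837, 824 and 827 CPM in the Tnfaip2-/- samples. Thbd, Rhox5 and the basement membrane genes Lama1 and Col4a1, among which are genes typical of parietal endoderm, rose by 3.30, 1.75, 1.39 and 0.83 on the log2 scale (adjusted p = 5.24e-08, 4.71e-28, 5.09e-31 and 3.78e-27, edgeR). Hnf4a, typical of visceral endoderm like Afp and the apolipoproteins, was not past the threshold (log2 fold change 0.25, adjusted p = 0.0999). Afp had 21, 16 and 25 counts in the WT group and then 1, 0 and 2 in the Tnfaip2-/- group, a ratio of 19.8 in favour of the WT EBs (95% exact binomial interval 6.45 to 98.4; adjusted p = 1.77e-09). Fst and Apoa1 had log2 fold changes of -2.83 and -2.59 (adjusted p = 2.61e-33 and 3.22e-14), and Apob went from 162, 202 and 181 to 50, 35 and 39 counts (adjusted p = 2.48e-18).

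Hand1 is also a gene of extraembryonic mesoderm, and of the 15 genes listed for this tissue and the amnion 9 were tested, with 1 higher, 8 lower and a median log2 fold change of -1.49. Summed, the list reached 47.3, 46.5 and 48.2 CPM in the WT samples and 30.4, 30.5 and 33.6 CPM in the Tnfaip2-/- samples. The ligand gene Bmp4 was the 1 that rose, from 109, 118 and 133 to 262, 265 and 293 counts (log2 fold change 1.22, adjusted p = 4.55e-16, edgeR). Mesp1, Kdr and Wnt5a had log2 fold changes of -4.05, -2.82 and -2.46 (adjusted p = 1.08e-09, 1.69e-10 and 5.53e-10), and Col3a1 went from 12, 21 and 12 to 1, 1 and 0 counts (adjusted p = 5.65e-08). Postn had 2, 2 and 4 counts in the WT samples, against 0 in all Tnfaip2-/- samples, at least 2.55-fold lower with the floor of 3 counts over the group. Mesp1, Kdr, Wnt5a, Col3a1 and Tal1 passed the filter through their WT counts. Tal1, with a log2 fold change of -1.49, is the median of the list. The direction of these genes and the median are thus in part set by the filter.

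Tfap2a is also a gene of surface ectoderm. Of the 16 genes listed for it 9 were tested, with 2 higher, 6 lower, 1 not past the threshold and a median log2 fold change of -0.96. The genes together had 506, 511 and 501 CPM in the WT samples and 514, 510 and 520 CPM in the Tnfaip2-/- samples, most of it Cdh1, which other epithelia and ESCs express too. Grhl3 and Dlx3 rose by 2.47 and 3.59 on the log2 scale (adjusted p = 1.9e-36 and 1.5e-20, edgeR), both genes that trophoblast also uses. Foxi3 fell most, from 107, 122 and 95 to 10, 8 and 15 counts (log2 fold change -3.24, adjusted p = 2.56e-18). Msx1, Msx2 and Wnt6 had log2 fold changes of -1.77, -1.60 and -1.38 (adjusted p = 6.16e-13, 8.99e-11 and 0.00149). Dlx5 had 3, 4 and 3 counts in the WT samples, against 0 in all Tnfaip2-/- samples, at least 3.19-fold lower with the floor of 3 counts over the group. Krt5 and Trp63, which define stratified epithelium, had at most 4 and 2 counts in a sample. The part of surface ectoderm in the values of Tfap2a and Tfap2b was not tested.

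**Figure D5:**
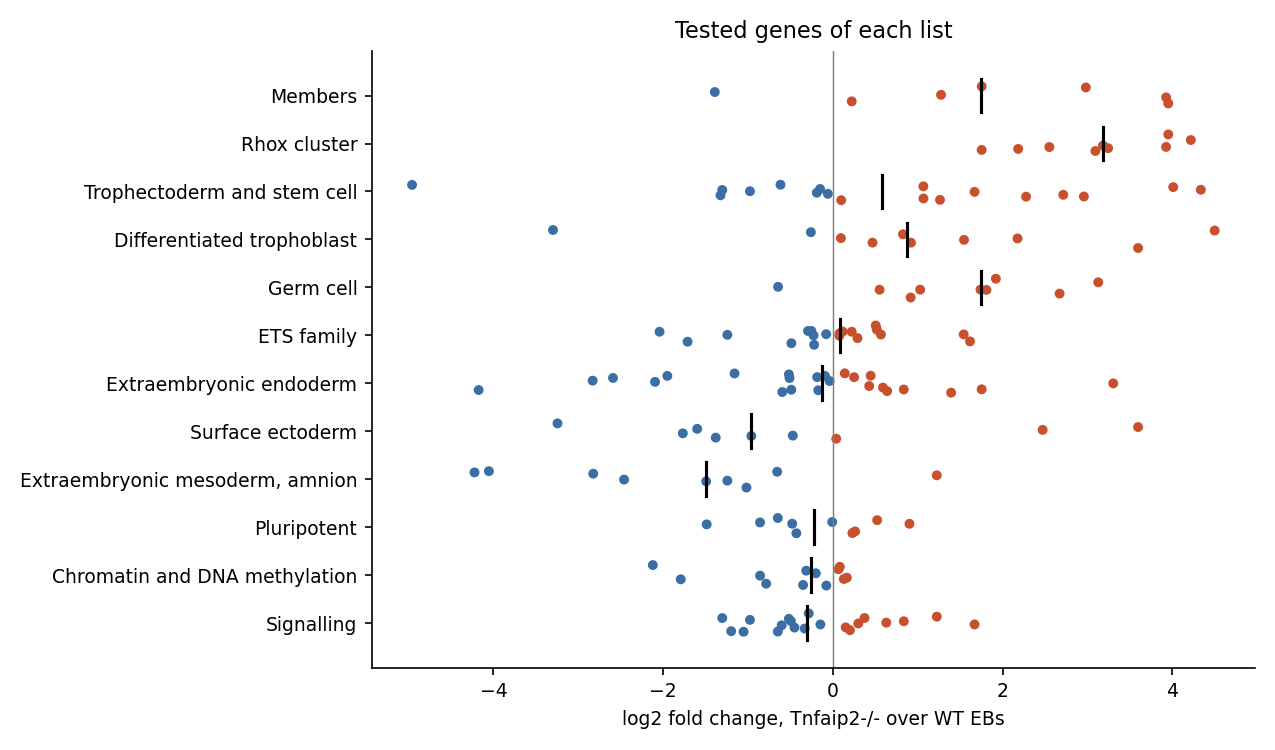
Log2 fold change, Tnfaip2-/- over WT EBs, of each tested gene (points, higher genes in red and lower genes in blue) in the members and 11 further lists, with the median of each list as a black line. The medians run from 3.18 for the Rhox cluster to -1.49 for extraembryonic mesoderm and amnion, and that of all tested genes is 0.003.

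Of the 10 genes listed for pluripotent cells, all tested, 4 were higher and 5 lower, with a median log2 fold change of -0.22, and their summed level was 2193, 2185 and 2210.0 CPM in the WT samples and 2029, 2010.0 and 2014 CPM in the Tnfaip2-/- samples. Pou5f1, the most abundant in the WT EBs, represses trophoblast genes in ESCs and went from 17425, 16786 and 17869 to 9563, 9282 and 9144 counts (log2 fold change -0.86, adjusted p = 1.6e-32, edgeR). The log2 fold changes of Klf4, Fgf4 and Esrrb were -1.49, -0.65 and -0.48, and those of Zfp42, Tfcp2l1, Nanog and Sox2 were 0.90, 0.52, 0.26 and 0.23 (adjusted p from 1.92e-31 to 6.12e-11). Genes of the pluripotent state were thus among the abundant transcripts of both lines.

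DNA methylation and chromatin factors keep trophoblast and germline genes silent in ESCs, and promoters of Elf5 and of the Rhox genes are known targets of DNA methylation. Of the 12 genes listed for this barrier all were tested, with 3 higher, 8 lower and 1 not past the threshold, and a median log2 fold change of -0.26. Their summed level was 5620, 5636 and 5534 CPM in the WT samples and 4208, 4227 and 4253 CPM in the Tnfaip2-/- samples, with Trim28 the most abundant in both. The genes for the de novo DNA methyltransferases changed most. Dnmt3a went from 14564, 14583 and 14778 to 3296, 3159 and 3384 counts (log2 fold change -2.12, adjusted p = 8.25e-46, edgeR), and Dnmt3b from 13515, 13447 and 14060 to 4047, 3732 and 3770 counts (log2 fold change -1.79, adjusted p = 7.6e-44). Pou5f1, which the list shares, and Uhrf1, a partner of maintenance methylation, had log2 fold changes of -0.86 and -0.79. The maintenance enzyme gene Dnmt1 had a log2 fold change of -0.08, not past the threshold when library totals alone were used for scaling (adjusted p = 0.0896). The genes that rose did so by at most 0.16 on the log2 scale, Trim28, Eed and Ezh2, of which Ezh2 was not past the threshold without Tnfaip2-/- replicate 3 or the filter (adjusted p = 0.0592 and 0.0529). Methylation was not measured here, and the part of these enzymes in the members' values was not tested.

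All 20 listed genes of the signals that act on trophectoderm were called, with 8 higher, 12 lower and a median log2 fold change of -0.31, and their summed level was 881, 890.1 and 882 CPM in the WT samples and 782, 770 and 779 CPM in the Tnfaip2-/- samples. In the FGF pathway, which maintains trophoblast stem cells, the receptor gene Fgfr2 rose from 280, 237 and 258 to 747, 837 and 818 counts (log2 fold change 1.67, adjusted p = 1.5e-26, edgeR), while the ligand gene Fgf4 fell. In the BMP pathway Bmp4 rose, as given above, its target gene Id1 rose by 0.20 on the log2 scale (adjusted p = 0.00074), and its target genes Id2 and Id3 fell, with log2 fold changes of -1.30 and -1.20 (adjusted p = 4.35e-26 and 3.73e-21). Bmp8b, a ligand gene of the extraembryonic ectoderm, had 10, 11 and 7 counts against 15, 16 and 18 (log2 fold change 0.84, adjusted p = 0.0224), and was not past the threshold without WT replicate 3 or Tnfaip2-/- replicate 3 or with DESeq2 (adjusted p = 0.118, 0.0805 and 0.182). In the Hippo pathway, which controls Tead4 activity, Amot had a log2 fold change of -1.05 (adjusted p = 5.39e-22). Of its kinase genes Lats1 had one of -0.60 and Lats2 one of 0.63 (adjusted p = 6.03e-13 and 0.00236). Lats2 had 43, 32 and 37 counts against 45, 65 and 59, and Gm49361 on the same strand overlaps 42.4% of its exon bases. Genes were named for their increases and for their decreases, so that the mixed directions are set by the naming and are no result about these pathways.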

How the data were processed

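RNA of 3 WT and 3 Tnfaip2-/- EB samples was used, grouped by genotype as labelled. The authors mapped reads to GRCm38 with TopHat2 2.1.0, counted those that map uniquely per gene with featureCounts 1.5.0 and deposited these counts without normalization. The strand setting is not stated. The analysis ran in edgeR 4.0.16 under R 4.3.3 (TMM, the default filter, whose minimum count is 10 and minimum total 15, robust quasi-likelihood F test in its newer form, Benjamini-Hochberg adjustment over all 17849 tested genes, threshold 0.05). A standard error was obtained by dividing the size of the log2 fold change by the root of F. For some genes with at most 3 counts in a group, and for Gata2, Gata3 and Plac1, a ratio of summed counts, scaled by library totals, is given. Its exact binomial (Clopper-Pearson) interval was computed in Python 3.11.15 with scipy 1.17.1. Positions, exon lengths and 51-base windows, compared among annotated transcripts only, come from GENCODE, and promoter windows from RefSeq.

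The members and lists were chosen with earlier results of these data known. Named were all members, up to 4 genes with the largest increase and up to 4 with the largest decrease of each list among called genes whose groups do not overlap, all genes of the GATA, TFAP2, HAND and Rhox families with counts, and defining genes of each cell type. Of these, 2 listed genes are not reported here, though list totals include them. Syna, Krt7, Krt8, Krt18, Eomes, Esx1, Spdef, Spi1, Fli1, Sox21, Hnf4a, Id1, Lats1, Dnmt1, Postn, Dlx5 and the genes beside the Rhox cluster were picked after their values were seen. Of each pair of same-numbered samples, deviations from the group means correlated at -0.022, -0.025 and -0.032 across genes, so that replicate numbers were not taken to pair samples. The scripts were tested on simulated data with known changes. Alternatives were DESeq2 1.42.0, other scaling, the legacy form of the test, a stricter filter, none at all, a replicate block and leaving out each sample.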

Additional observations from a re-analysis of the deposited data

How the results depend on the processing

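The number of differentially expressed genes, 12084, was 10195 with DESeq2, 12676 without the filter, 11361 with a filter of at least 1 CPM in 3 samples and 11841 with the replicate block, and between 11537 and 11744 when a sample was left out. The differentially expressed genes changed at least 2-fold, 2136, numbered 2387 with DESeq2 and 2134 with the replicate block. They numbered 3126 without the filter, 1624 with the filter of 1 CPM, and from 2264 to 2342 when a sample was left out.

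For the 7 tested members all 89 values under the alternatives had the same direction and stayed past the threshold. As the members were chosen with this contrast known, and refits use the same samples, this describes the settings only and is no support for the members. Their log2 fold changes ranged from 0.18 to 0.25 for Ets2, 1.08 to 1.62 for Gata2, 1.38 to 1.91 for Hand1, 2.94 to 3.01 for Tfap2c, 3.79 to 4.08 for Rhox6, 3.85 to 3.96 for Rhox9 and -1.56 to -1.17 for Tfap2a. With the filter of 1 CPM, Hand1 and Gata2 were not tested. Plac1 passed the default filter when WT replicate 1 or Tnfaip2-/- replicate 2 was left out, and was then called higher, with log2 fold changes of 2.13 and 1.52, and with no filter it was not past the threshold, with 1.16.

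Across all 144 tested genes of the lists, 1813 of 1857 values had the same direction and the same call, 38 were no longer past it, 6 came past it and 0 reversed. In the Rhox cluster 19 genes were called higher with DESeq2, 23 without the filter and 5 with the filter of 1 CPM, which test other numbers of low-count genes. With the replicate block 9 were called higher, and 0 were lower in any alternative. In the main fit 34.0% of all tested genes were called higher. The 19 and 23 include single Rhox2 and Rhox4 copies, as only 12 Rhox genes with counts lie outside these copies. Such copies are not separable, so that the 19 and 23 are not numbers of separate genes. Depth limits Gata3, Elf5, Plac1, Gata1, Tfap2b, Hand2 and the Rhox2 and Rhox4 copies, for which a few reads decide the value.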
